A study of Danio rerio with 12 samples.

Results

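The comparison set 3 il2rga mutant zebrafish against 3 prkdc mutant zebrafish, using 6 of the 12 libraries of the series and the 18370 of 32105 genes that passed a low-count filter. Each library was made from poly(A) RNA of the whole kidney marrow of a single animal; in fish this organ makes the blood cells and also holds the nephrons. The il2rga mutants belong to a line with the frameshift allele Y91fs and the prkdc mutants to a line with D3612fs, as the series' design text names the alleles. Wild type and double mutant animals, 3 of each, entered the low-count filter, the scaling and the estimate of the spread between animals. With the 6 libraries alone 17072 genes passed the filter. The levels of the other groups are given where they help to place a difference. The animals were labelled by genotype alone, and no label gives zygosity, strain, sex, age or batch. Total counts ran from 7865665 to 9465242 in the prkdc mutants and from 4756244 to 8907049 in the il2rga mutants.

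Interleukins that act on T cells and natural killer (NK) cells signal through the common gamma chain, the product of il2rga, which works with the kinase Jak3 and the Stat5 proteins. The product of prkdc is the large subunit of DNA-PK, a kinase needed to rejoin DNA when the genes of antigen receptors are cut and assembled. In mammals, loss of the common gamma chain removes T and NK cells and leaves B cells in variable number, while loss of the kinase removes T and B cells and spares NK cells. Setting the mutants against each other therefore asks which lymphocyte genes separate these lesions when both groups are immunodeficient.

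The unit of expression is CPM, which scales counts to a common library total, and values follow the order of animals 1 to 3. A fold change is on the log2 scale, il2rga minus prkdc mutants, with its standard error, and a gene is called at an adjusted p under 0.05 from the quasi-likelihood test of edgeR. Of the 18370 genes, 1244 were called, which is 6.77%. There were 570 called higher in il2rga mutants (3.1%) and 674 called lower (3.67%), and 894 differed by at least 2-fold. The median log2 fold change over all genes was 0.03. Before adjustment 4806 of the 18370 genes had a p under 0.05, the share to set beside counts of list members at that level. Of the same genes 2 other methods called more. DESeq2 called 1315 higher and 1346 lower, and limma voom 1715 higher and 1771 lower. The gene lists below were chosen with earlier results of these data known. A share of called members above that of all genes therefore describes a list and is no separate test of it. The plot of fold change against level shows that B cell, immunoglobulin, class I and liver genes lay among the rises, and NK-lysin, chemokine and T cell receptor genes among the falls.

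**Figure D1:**
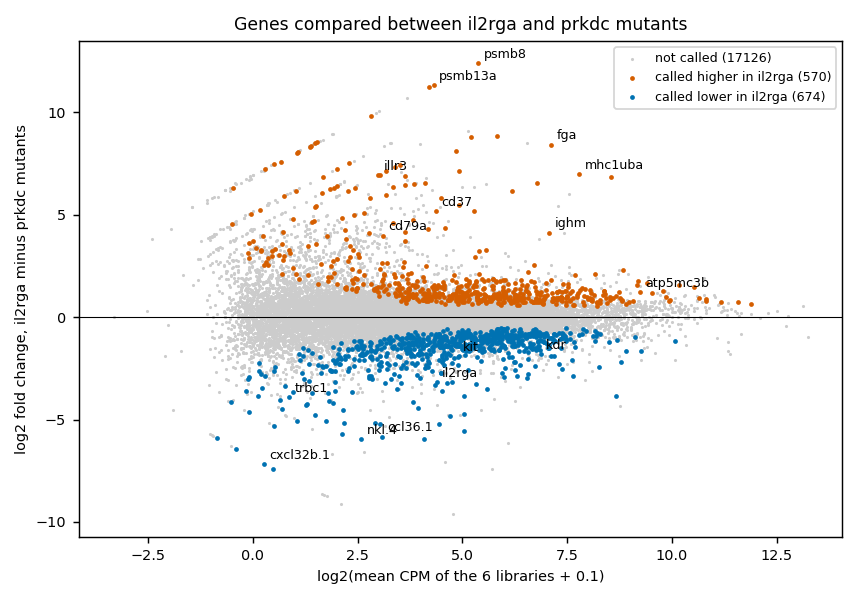
Log2 fold change of il2rga against prkdc mutants for the 18370 genes tested, plotted against log2(mean CPM of the 6 libraries + 0.1). Orange points are the 570 genes called higher and blue points the 674 called lower, and the lines of points at the upper left are genes with no or few counts in prkdc mutants.

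Some animals stood apart in ways that genotype labels do not describe. The mean log2 CPM of 39 liver genes was 5.06 and 6.28 in il2rga mutants 1 and 2, against 1.42 in il2rga mutant 3 and 1.23, 1.26 and 0.73 in the prkdc mutants. Double mutants stood at 7.50, 5.68 and 4.40. The 4 libraries with the highest levels were il2rga and double mutants 1 and 2. With the liver level as a covariate in the fit, 11 genes were called, and 16 were called without those 4 libraries, a fit that leaves il2rga mutant 3 alone against 3 prkdc mutants and assumes that it varies like the other groups. Of 1240 called genes that could be refitted without the 4 libraries, 1226 had the same direction. The calls had already used il2rga mutant 3 and the same 3 prkdc mutants, so the shared direction is no separate test of the differences. Liver RNA, animal and genotype overlap here, and the part of liver RNA in the differences was not tested.

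The targeted genes were read first. The il2rga transcript stood at 35.6, 34.1 and 42.2 CPM in prkdc mutants and at 4.83, 1.71 and 6.17 CPM in il2rga mutants. The groups did not overlap, wild type lay at 42.8, 38 and 61.4 CPM, and il2rga mutants were lower, at -3.18 ± 0.43 on the log2 scale (edgeR, adjusted p = 0.00674). The prkdc transcript stood at 23.3, 16 and 22.1 CPM in prkdc mutants and at 34.2, 32.4 and 22.1 CPM in il2rga mutants. Prkdc mutant 1 lay above il2rga mutant 3, and the difference of 0.53 ± 0.21 did not pass the test (edgeR, adjusted p = 0.149), although wild type stood higher than every library of both groups at 50.1, 54.1 and 62.8 CPM. The il2rga level thus followed the labels in all 6 libraries, while the level of prkdc did not separate them. The prkdc transcript is long, with its allele at residue 3612, and the mean of very long transcripts given below was lower in il2rga mutants. The part of that shift in the prkdc levels was not tested.

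Part of the genes of cytotoxic T and NK cells fell in il2rga mutants. Of 15 tested members of that list, 6 fell, none rose and 9 were not called, against 3.67% of all genes called lower, and the median log2 fold change was -1.89. The NK-lysins are small pore-forming peptides of cytotoxic granules, and all 3 measured paralogues fell. The nkl.3 transcript stood at 25.2, 10.8 and 11.4 CPM in prkdc mutants and at 0.63, 0.107 and 0.638 CPM in il2rga mutants, which is -5.22 ± 0.88 on the log2 scale (edgeR, adjusted p = 0.0109). The nkl.4 transcript stood at 18.7, 8.4 and 7.67 CPM against 0, 0 and 0.638 CPM, with no count in 2 of the 3 il2rga mutants. Its level over the group was 72.7 times as high in prkdc mutants, with a 95% interval of 24.6 to 354 that covers counting error only. For nkl.2, at 3.32, 5.35 and 3 CPM against 0, 0.214 and 0 CPM, the ratio was 36.9 with an interval of 9.97 to 309. In each of these genes every prkdc mutant lay above every il2rga mutant, and wild type overlapped the prkdc mutants for nkl.2 and nkl.4 and lay below them for nkl.3, at 4.72, 7.06 and 10.1 CPM. The paralogues are alike in sequence, so the authors' counting could split reads between them.

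The remaining called members of the cytotoxic list were an effector, a ligand and a transcription factor. The perforin gene prf1.9 stood at 6.18, 4.58 and 4.68 CPM in prkdc mutants and 0.42, 0 and 0.213 CPM in il2rga mutants (log2 fold change -4.76 ± 0.82; edgeR, adjusted p = 0.0116). The gene for Fas ligand, faslg, had no count in any il2rga mutant and 0.687, 1.31 and 0.72 CPM in prkdc mutants, at least 5.74-fold lower against a floor of 3 counts over the group (edgeR, adjusted p = 0.0352). The gene tbx21, for the T-bet factor of type 1 lymphocytes, was measured at 5.38, 4.04 and 4.68 CPM against 1.47, 0.534 and 0.851 CPM, a change of -2.34 ± 0.54 (edgeR, adjusted p = 0.031). Perforin paralogues did not move as a block: prf1.1 stood at 0.458, 1.64 and 1.2 against 0, 0.107 and 0 CPM without passing the test (edgeR, adjusted p = 0.0512). Another paralogue, prf1.6, chosen after its values were seen, was higher in il2rga mutants at 1.47, 2.35 and 1.91 CPM against 0, 0.327 and 0.24 CPM (log2 fold change 3.25 ± 0.87; edgeR, adjusted p = 0.0488). Granzyme gzma had a log2 fold change of -1.7 ± 0.57 and was not called (edgeR, adjusted p = 0.0933). The zinc finger factor gene zbtb32 and the Tec-family kinase gene txk, also chosen after their values were seen, fell by 4.21 and 3.34 on the log2 scale. Between 3 and 5 cytotoxic members fell when any library of the 2 groups was left out, and 0 passed with the liver covariate or without the 4 liver-rich libraries. In RNA from whole tissue, fewer cells of a type and less RNA per cell cannot be told apart.

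Few T cell genes were called between the groups. Of 26 tested members 3 fell (11.5%, against 3.67% of all genes) and none rose, with a median of -0.96. In 12 of the 26 every il2rga mutant lay below every prkdc mutant, against 15.3% of all genes. The T cell receptor beta constant gene trbc1 stood at 2.4, 4.15 and 3.24 CPM in prkdc mutants and 0.21, 0.32 and 0 CPM in il2rga mutants, against 9.54, 7.19 and 19.6 CPM in wild type. Its log2 fold change was -3.92 ± 0.86 (edgeR, adjusted p = 0.0274). The gene bcl11ba, for a factor of T cell commitment, stood at 1.03, 0.873 and 1.56 CPM against 0, 0.107 and 0 CPM, with a ratio of 21.5 and a counting interval of 3.58 to 878. The adaptor gene lat, which links the T cell receptor to its signalling proteins, stood at 1.14, 2.29 and 1.8 CPM against 0.42, 0.214 and 0.213 CPM (log2 fold change -2.62 ± 0.63; edgeR, adjusted p = 0.037). In each of the 3 genes prkdc mutants lay between wild type and il2rga mutants.

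Other T cell genes did not pass the test. The kinase genes zap70 and itk had log2 fold changes of -2.38 ± 0.72 and -2.56 ± 0.74, with adjusted p of 0.0673 and 0.0617 by edgeR. The co-receptor gene cd4-1 had a value of -2.5 ± 0.81, and cd8a stood at 0.114, 0.764 and 0.12 CPM in prkdc mutants with no count in il2rga mutants. The homing receptor gene ccr7 stood at 0.801, 1.09 and 0.72 CPM against 0.21, 0.641 and 0.425 CPM, and the T cell factor gene tcf7 at 0.572, 0.764 and 0.72 CPM against 1.26, 0.214 and 0.425 CPM. Both were far below wild type, at 14.7, 8.89 and 19.7 CPM for ccr7 and 9.64, 6.46 and 11.9 CPM for tcf7. With any library of the 2 groups left out, 0 to 2 members fell. DESeq2 called 9 lower and 1 higher, against 1346 lower and 1315 higher of all 18370 genes. Limma voom called 1 lower and 1 higher, against 1771 and 1715 of all genes. The fit of only the 6 libraries compared called 1 lower, and the fit with the liver covariate 0.

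A few B cell genes rose in il2rga mutants. Of 15 tested members 3 rose, none fell and 12 were not called, against 3.1% of all genes called higher, with a median of 0.54 and 2 negative fold changes. The gene cd79a, for a signalling chain of the B cell receptor, stood at 1.49, 0.327 and 1.2 CPM in prkdc mutants and at 16.2, 6.94 and 25.1 CPM in il2rga mutants (log2 fold change 3.98 ± 0.71; edgeR, adjusted p = 0.0133). The gene pax5, for the factor that holds B cell identity, stood at 0.572, 0.218 and 0.48 CPM against 10.7, 2.56 and 12.3 CPM, a change of 4.28 ± 0.8 (edgeR, adjusted p = 0.0155). The tetraspanin gene cd37 stood at 1.6, 0.436 and 1.2 CPM against 21.6, 10.8 and 86.8 CPM, a change of 5.18 ± 0.99 (edgeR, adjusted p = 0.0179). In all 3 genes il2rga mutant 2 was the lowest of its group and still lay above every prkdc mutant, and wild type overlapped the il2rga mutants for cd79a, at 17.9, 5.12 and 18.3 CPM. The partner gene cd79b had a change of 2.86 ± 0.86 and was not called (edgeR, adjusted p = 0.0688). The interferon regulatory factor gene irf4b, used by plasma cells, rose with a change of 2.59 ± 0.54 (edgeR, adjusted p = 0.024), and was the called member of 4 tested plasma cell genes.

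Immunoglobulin genes showed the same order of the groups with larger differences. Of 7 tested members 5 rose (71.4%, against 3.1% of all genes) and none fell, and the median log2 fold change was 4.47. In all 7 every il2rga mutant lay above every prkdc mutant, against 15.4% of all genes. The heavy chain constant gene ighm stood at 12.7, 12.5 and 18.7 CPM in prkdc mutants and at 123, 48.8 and 591 CPM in il2rga mutants, where animal 3 was by far the highest. Its change was 4.11 ± 0.8 (edgeR, adjusted p = 0.0198), and wild type stood at 53.4, 97.8 and 113 CPM. The gene ighd, for the IgD heavy chain, changed by 2.7 ± 0.58 (edgeR, adjusted p = 0.0263). Light chain transcripts were nearly absent in prkdc mutants. The gene igic1s1 stood at 0, 0 and 0.36 CPM against 18.9, 3.52 and 26 CPM, a ratio of 114 with a counting interval of 38.5 to 556. The gene igl1c3 stood at 0.114, 0 and 0.12 CPM against 9.45, 1.82 and 10.8 CPM, with a ratio of 78.8 and an interval of 21.3 to 658. The gene igl3c3 had no count in prkdc mutants and 7.35, 0.32 and 4.25 CPM in il2rga mutants, which is at least 27-fold higher, taking 3 counts over the group as the floor. Immunoglobulin genes come from families of similar segments, so their counts are uncertain.

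Which B cell and immunoglobulin genes were called depended on single libraries, while the fold changes of the called genes named here stayed positive. Over the settings tried they ran from 3.19 to 4.71 for cd79a, from 3.17 to 5.17 for pax5 and from 2.57 to 5.38 for ighm. The number of B cell members that rose was 0 to 3 with any library of the 2 groups left out, and that of immunoglobulins 1 to 5. Without prkdc mutant 3 no B cell member passed, and the same held without the 4 liver-rich libraries. Calls of cd37, ighm and igic1s1 remained with the liver covariate, and that of ighm also without the 4 libraries.

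**Figure D2:**
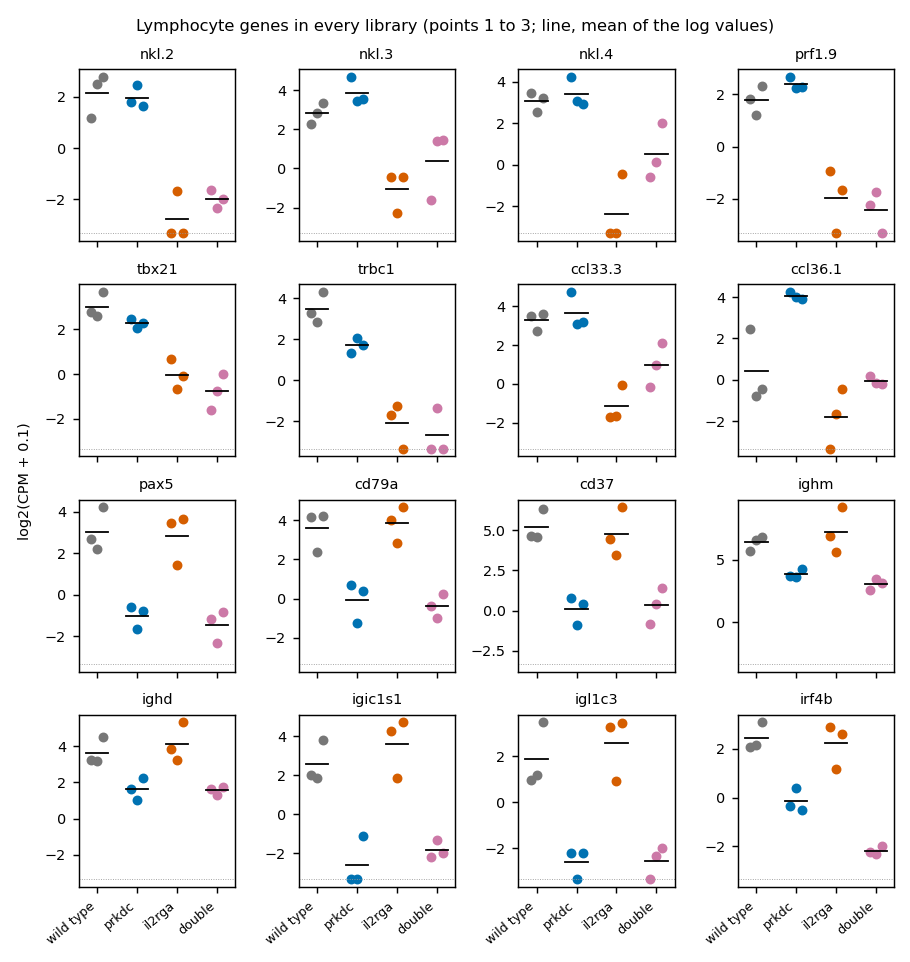
Log2(CPM + 0.1) of 16 lymphocyte genes in every library, with 1 point per animal, a line at the mean of each group and a dotted line at 0 counts. NK-lysin, perforin and trbc1 points of il2rga mutants lie below those of prkdc mutants, and B cell and immunoglobulin points lie above them.

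The genes that act nearest to the lesions were compared directly. Of 14 tested genes of V(D)J recombination and DNA end joining, 0 passed the test with edgeR, against 6.77% of all genes. At that share a list this short may hold no call. Of the 14, 2 had an unadjusted p under 0.05, against 4806 of all 18370 genes. DESeq2 called 0 and limma voom 1, against 2661 and 3486 of all genes. Fold changes of the 14 ran from -0.96 to 0.85 on the log2 scale, with 12 positive and 2 negative. In 6 of the 14 every il2rga mutant lay above every prkdc mutant and in 0 below, against 15.4% and 15.3% of all genes. The mean log2 CPM of the list was 3.58, 3.45 and 3.41 in prkdc mutants and 3.77, 3.63 and 3.78 in il2rga mutants, without overlap. The end-binding gene xrcc6 stood at 44, 42.9 and 38.7 CPM against 48.3, 55.3 and 53 CPM (log2 fold change 0.32 ± 0.17; edgeR, adjusted p = 0.268). The recombinase genes rag1 and rag2 had changes of -0.96 ± 0.59 and 0.49 ± 0.58, with overlapping groups. Of 19 tested genes of common gamma chain receptors and the JAK-STAT pathway, il2rga was the member called with edgeR. In that list 5 had an unadjusted p under 0.05, and DESeq2 and limma voom each called 3 lower and 1 higher. Over all 18370 genes 4806 had an unadjusted p under 0.05. DESeq2 called 1346 of them lower and 1315 higher, and limma voom called 1771 lower and 1715 higher of the 18370. The receptor subunit gene il2rb stood at 28.4, 15.6 and 19.8 CPM against 10.3, 5.45 and 3.83 CPM without overlap and did not pass (log2 fold change -1.71 ± 0.47; edgeR, adjusted p = 0.0521). The signal transducer gene stat5b stood at 29.8, 28.9 and 26.9 CPM against 13.9, 17.8 and 13 CPM, also without overlap and without a call (edgeR, adjusted p = 0.0625). The feedback inhibitor gene cish pointed the other way, at 4.81, 20.1 and 15.5 CPM against 179.8, 132 and 38.1 CPM (log2 fold change 3.11 ± 1.04; edgeR, adjusted p = 0.0963). The groups did not overlap, and il2rga mutants 1 and 2, with the high liver levels, held the most cish.

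Chemokine genes moved apart from each other. Of 26 tested CC and CXC chemokine genes 4 fell in il2rga mutants and none rose. That is 15.4% called lower, against 3.67% of all genes. The median of 0.09 lay close to the 0.03 of all genes. The gene ccl36.1 stood at 18.7, 15.8 and 14.9 CPM in prkdc mutants and 0, 0.214 and 0.638 CPM in il2rga mutants, a change of -5.84 ± 1.02 (edgeR, adjusted p = 0.0121). Wild type had 5.41, 0.487 and 0.646 CPM, so the prkdc mutants were the high group. The gene ccl33.3 stood at 26.2, 8.4 and 8.87 CPM against 0.21, 0.214 and 0.851 CPM, with wild type at 11.2, 6.46 and 11.9 CPM and a change of -5.15 ± 0.82 (edgeR, adjusted p = 0.00958). The gene ccl34b.4 fell with a change of -4.24 ± 0.83 (edgeR, adjusted p = 0.0178). The gene cxcl32b.1 had no count in il2rga mutants and 1.6, 1.85 and 3.12 CPM in prkdc mutants, at least 13.6-fold lower against a floor of 3 counts over the group. None of the 4 overlapped between the groups. In 5 of the 26 members every il2rga mutant lay below every prkdc mutant and in 4 above, against 15.3% and 15.4% of all genes. A further member, ccl34a.4, had a change of 2.21 ± 0.62 and was not called (edgeR, adjusted p = 0.054). Between 2 and 4 members fell with any library of the 2 groups left out, and 0 with the liver covariate or without the 4 liver-rich libraries.

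Part of the class I pathway, which loads peptides cut by the proteasome onto class I molecules, was nearly silent in all 3 prkdc mutants. Of 19 tested members of the list 7 rose in il2rga mutants and none fell, and the median was 0.41, with the other 12 members not called. The 7 make 36.8%, against 3.1% of all genes called higher. The immunoproteasome subunit gene psmb8 had no count in any prkdc mutant and 42.9, 63.7 and 141 CPM in il2rga mutants, at least 681-fold higher. Its neighbours psmb13a and psmb12 also had no count in prkdc mutants, against 18.5, 34.6 and 65.9 and 15.5, 29.6 and 64.5 CPM, at least 336-fold and 304-fold higher. For these genes the floor was 3 counts over the prkdc group, and the edgeR adjusted p was 0.0318, 0.0398 and 0.0352. The subunit gene psmb9 stood at 0.229, 0.436 and 0.36 CPM against 14.7, 29.3 and 58.5 CPM, a change of 6.58 ± 1.26 (edgeR, adjusted p = 0.0183). The peptide transporter gene tap2a stood at 0, 0.327 and 0.24 CPM against 7.35, 18.6 and 46.6 CPM, a change of 6.88 ± 1.46 (edgeR, adjusted p = 0.0269). The molecule mhc1uba of class I stood at 3.09, 4.25 and 2.88 CPM against 295, 366 and 649 CPM, a change of 6.99 ± 1.44 (edgeR, adjusted p = 0.0255). Another class I gene, mhc1uca, had no count in prkdc mutants and 16.2, 25.8 and 34.5 CPM in il2rga mutants but was not called (edgeR, adjusted p = 0.0595).

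This on-off pattern did not follow genotype in the other groups. In wild type psmb8 stood at 47.4, 22 and 0.108 CPM, so wild type 3 lay near 0, and psmb13a, psmb12 and mhc1uca had no count in that animal. All 3 double mutants, which carry the prkdc lesion too, had psmb8 at 59.3, 78.4 and 19.4 CPM. For mhc1uba all wild type animals were at the low level, at 5.6, 3.9 and 4.41 CPM, and so was double mutant 3, with 335, 763 and 2.9 CPM in the double mutants. In the RefSeq gene order of the GRCz12tu assembly, mhc1uba, 2 long noncoding RNAs, psmb13a, psmb8a, psmb12, psmb9a and tap2a lie next to each other, with overlapping annotation of psmb13a, psmb8a and psmb12. Zebrafish carry class I haplotypes that differ in which genes they hold, and the haplotype of these animals is not given in the labels, so haplotype and genotype cannot be told apart. Some class I genes outside this run showed no such step: b2m, for the light chain, had a change of 0.04 ± 0.3, tap1 of -0.42 ± 0.24 and psmb10 of 0.44 ± 0.24, none called. They do not stand for all members outside the run, since not every called member of the list lies in it. With any library of the 2 groups left out, 0 to 3 members rose, and without the 4 liver-rich libraries 1 did, mhc1uba.

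**Figure D3:**
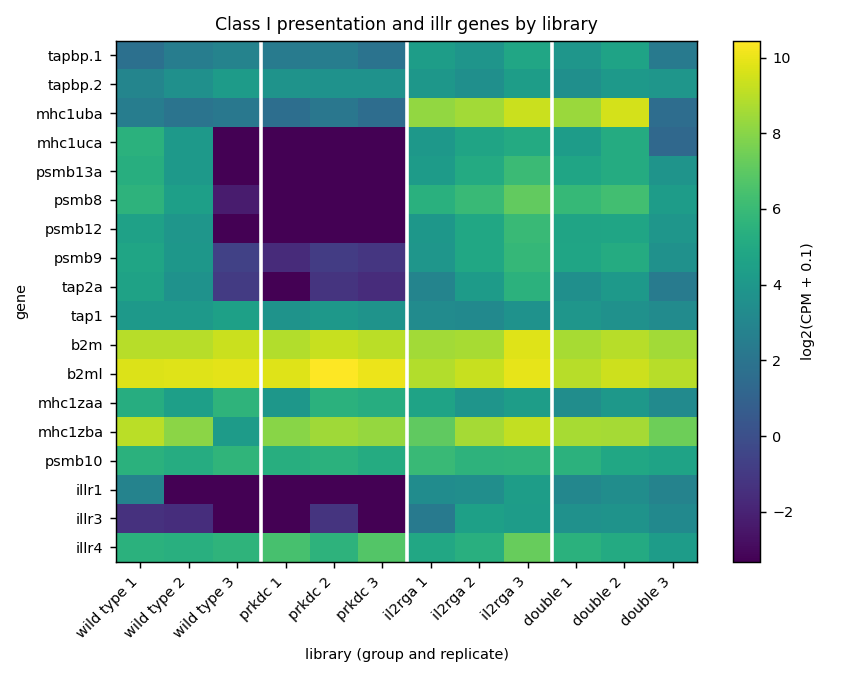
Log2(CPM + 0.1) of 15 class I presentation genes and 3 illr genes, with a row per gene and a column per library. The genes from mhc1uca to tap2a are dark in the 3 prkdc mutants and wild type 3 and brighter in the il2rga and double mutants, and b2m, b2ml, tap1 and psmb10 vary little.

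The illr genes encode lectin-like receptors of immune cells. The gene illr1 had no count in prkdc mutants and 10.3, 11.2 and 20 CPM in il2rga mutants, at least 115-fold higher (edgeR, adjusted p = 0.0494). Wild type held both states, with 7.08, 0 and 0 CPM. The gene illr3 stood at 0, 0.327 and 0 CPM against 4.83, 22.3 and 19.6 CPM, a ratio of 151 with a counting interval of 51.1 to 734. The gene illr4 overlapped between the groups, with a change of -0.1 ± 0.55. Of 3 tested members 2 thus rose (66.7%, against 3.1% of all genes), and the median was 6.93, or 6.85 with illr1 at its bound.

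A few inflammatory genes were called higher in il2rga mutants, and more of them lay higher without a call. Of 17 tested cytokine and inflammasome genes 3 rose and none fell, with a median of 1.18, and of 24 interferon response genes 2 rose, with a median of 0.81. These are 17.6% and 8.33%, against 3.1% of all genes called higher. In 10 of the 17 every il2rga mutant lay above every prkdc mutant and in 1 below, against 15.4% and 15.3% of all genes. An unadjusted p under 0.05 was found for 10 of the 17 and for 4 of the 24, against 4806 of all 18370 genes. Of the 17, DESeq2 called 7 higher, limma voom 5 and the edgeR fit with the liver covariate 0. Over all 18370 genes these fits called 1315, 1715 and 8 higher. In 4 of the 24 interferon genes every il2rga mutant lay above every prkdc mutant and in 0 below, against 15.4% and 15.3% of all genes. The count above thus lay near the share of all genes. The cytokine gene il11a stood at 0.229, 0.109 and 0.12 CPM against 3.99, 2.78 and 2.13 CPM (log2 fold change 4.15 ± 0.98; edgeR, adjusted p = 0.0404). The inflammasome adaptor gene pycard stood at 14.4, 7.53 and 11.8 CPM against 27.5, 26.3 and 22.6 CPM, a change of 1.18 ± 0.26 (edgeR, adjusted p = 0.028). The factor gene cebpb, active in myeloid cells and in acute inflammation, changed by 1.29 ± 0.32 (edgeR, adjusted p = 0.038). The interferon regulatory factor genes irf1b and irf9 changed by 1.46 ± 0.38 and 0.84 ± 0.22, with edgeR adjusted p of 0.0455 and 0.0464. Interferon targets themselves were uneven among il2rga mutants, as isg15 stood at 57.8, 42.5 and 5.74 CPM, with il2rga mutant 3 below all prkdc mutants, at 20.4, 8.73 and 11.4 CPM. The cytokine gene il1b stood at 0.916, 0.655 and 1.08 CPM against 2.31, 4.06 and 23.6 CPM and was not called (edgeR, adjusted p = 0.053). With any library of the 2 groups left out, 0 or 1 member of the inflammatory list and 0 of the interferon list rose.

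Among myeloid, red blood and progenitor genes few passed the edgeR test. Of 16 neutrophil genes 1 rose (6.25%, against 3.1% of all genes), the same cebpb. An unadjusted p under 0.05 was found for 5 of the 16, against 4806 of all 18370 genes. DESeq2 called 4 higher, against 1315 of all genes. Of 20 macrophage genes 1 rose (5%, against 3.1% of all genes). It was the complement gene c1qc, at 72.6, 83 and 103 CPM against 127, 159 and 197 CPM (edgeR, adjusted p = 0.0389). In 8 of the 20 every il2rga mutant lay above every prkdc mutant, against 15.4% of all genes, and 11 had an unadjusted p under 0.05. DESeq2 called 6 macrophage genes higher, and limma voom called 5 higher and 2 lower. Over all 18370 genes limma voom called 1715 higher and 1771 lower. The summed macrophage level was 5135, 5029 and 5691 CPM in prkdc mutants and 7573, 7911 and 7416 CPM in il2rga mutants, without overlap. The granule gene lyz, for lysozyme, had a change of 0.67 ± 0.32 with overlapping groups. Of 17 erythroid and 10 thrombocyte genes 0 passed the edgeR test, against 6.77% of all genes, a share at which short lists may hold none. Of these, 1 and 0 had an unadjusted p under 0.05, and DESeq2 and limma voom called 0. The haemoglobin gene hbaa1 had a change of 1.03 ± 0.51. Of 10 class II presentation genes 0 passed, with 2 at an unadjusted p under 0.05. DESeq2 called 1 and limma voom 2, against 2661 and 3486 of all 18370 genes. The invariant chain gene cd74a stood at 653, 889 and 887 CPM against 326, 255 and 851 CPM, with il2rga mutant 3 inside the prkdc range. Of 16 stem and progenitor genes 1 fell (6.25%, against 3.67% of all genes), kit, the receptor for stem cell factor. It stood at 37.4, 56.9 and 45.7 CPM against 14.9, 12.1 and 9.57 CPM, a change of -1.94 ± 0.27 (edgeR, adjusted p = 0.00674), and the factor gene myb did not differ beyond its spread at 0.02 ± 0.33.

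Among kidney, vessel and stromal genes a minority was called. Of 21 proximal tubule genes 1 rose, or 4.76%, against 3.1% of all genes called higher. It was fbp1b, for an enzyme of glucose synthesis, at 219, 400.4 and 251 CPM against 1078, 642 and 878 CPM (log2 fold change 1.58 ± 0.29; edgeR, adjusted p = 0.0141). Of 21 distal nephron and multiciliated cell genes 2 rose, or 9.52%. They were the salt transporter gene slc12a3, with a change of 1.75 ± 0.37, and the sodium pump gene atp1a1a.4, with 0.74 ± 0.18 (edgeR, adjusted p = 0.024 and 0.0384). The summed level of proximal tubule genes ran from 5834 to 9857 CPM in prkdc mutants and from 6481 to 11330 CPM in il2rga mutants, with overlap. That of distal nephron and multiciliated cell genes ran from 2882 to 3438 CPM and from 4190.1 to 7079 CPM, without overlap. The mean log2 CPM of this list did overlap, at 4.91, 5.61 and 5.16 in prkdc mutants and 5.72, 5.82 and 4.83 in il2rga mutants. Its median fold change was 0.39, with 13 positive and 8 negative. With the proximal tubule level as a covariate 1453 genes were called, among them 1166 of the 1244 called without it. No fit used the distal nephron level, and the part of either level in the differences was not tested. Of 9 podocyte genes 1 fell (11.1%, against 3.67% of all genes), plce1, with -1.13 ± 0.23 (edgeR, adjusted p = 0.0215). Of 21 endothelial genes 2 fell and 2 rose, or 9.52% each way, against 3.67% and 3.1% of all genes. The other 17 were not called, and the median was -0.12. The called genes kdr and cdh5, a growth factor receptor and a junction protein, fell with -1.8 ± 0.24 and -1.22 ± 0.25, while egfl7 and plvapb rose with 1.2 ± 0.21 and 0.91 ± 0.22 (edgeR, adjusted p from 0.00674 to 0.0352). Of 20 stromal and collagen genes 3 fell, or 15%, against 3.67% of all genes. They were col4a1, col5a1 and col6a3, with -1.17 ± 0.23, -1.32 ± 0.29 and -1.53 ± 0.41 (edgeR, adjusted p of 0.0175, 0.0269 and 0.0475). In 15 of the 20 every il2rga mutant lay below every prkdc mutant, against 15.3% of all genes. With any library of the 2 groups left out, 0 to 4 stromal genes fell.

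Liver transcripts were high in il2rga mutants 1 and 2. Of 39 tested liver genes 8 rose (20.5%, against 3.1% of all genes) and none fell, with a median of 5.38. The fibrinogen gene fga stood at 0.687, 1.2 and 0.48 CPM in prkdc mutants and 219, 608 and 0.851 CPM in il2rga mutants, so il2rga mutant 3 lay inside the prkdc range. The complement gene c9 stood at 0.801, 0.109 and 0.36 CPM against 45, 133 and 1.91 CPM, a change of 7.11 ± 1.6 (edgeR, adjusted p = 0.0332). The copper carrier gene cp was high in all 3 il2rga mutants, at 71.2, 124 and 62.8 CPM against 10.4, 3.16 and 13.1 CPM (log2 fold change 3.28 ± 0.77; edgeR, adjusted p = 0.0362). The apolipoprotein gene apoa1b was called at 6.85 ± 1.68 although the groups overlapped, at 7.78, 7.85 and 3.6 CPM against 779.9, 1444 and 3.83 CPM, and its value turned to -0.75 without the 4 liver-rich libraries. The other called members were itih2, serpina1l, apob and fgb. Of the liver genes 22 rose without il2rga mutant 3, and 0 rose when any of the other 5 libraries compared was left out. The summed liver list was 4084 and 8103 CPM in il2rga mutants 1 and 2.

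Some of the largest rises outside the lists had the same shape across animals. The gene cbln8, of the cerebellin family, stood at 0, 0.109 and 0.24 CPM against 11.1, 55.3 and 0.638 CPM, and oxct1b, of ketone body use, at 0, 0.109 and 0 CPM against 5.25, 17.6 and 0.425 CPM. The gene cbln10 had no count in prkdc mutants and 3.36, 11.7 and 1.49 CPM in il2rga mutants, at least 61.8-fold higher. In these 3 genes il2rga mutants 1 and 2 were high and il2rga mutant 3 was the lowest of its group. The gene doc2g was more even, with no count in prkdc mutants and 2.52, 2.35 and 1.91 CPM in il2rga mutants, at least 20-fold higher. Among the largest falls, sptssb, of sphingolipid synthesis, and sytl2b, of vesicle transport, were highest in prkdc mutant 2, at 1.03, 75.1 and 24 and 14.1, 151 and 23.4 CPM, against 0.42, 0.641 and 0.425 and 1.26, 1.17 and 4.89 CPM in il2rga mutants. The identifiers named ptpru and syt9 share their symbol with others and fell with -4.84 ± 1.05 and -5.71 ± 1.39 (edgeR, adjusted p = 0.0283 and 0.0378).

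Gonad and muscle genes varied between animals and gave no call. The mean log2 CPM of 20 testis genes was highest in il2rga mutant 2, at 4.6, and next in prkdc mutant 2, at 2.42, against 0.38 to 1.45 in the other 4 animals compared. The germ cell gene ddx4 stood at 0.343, 3.38 and 0.48 CPM and 1.89, 103 and 0.638 CPM in the same order. Of 20 testis, 24 ovary and yolk, 12 skeletal muscle and 4 interrenal steroid genes 0 passed the edgeR test, against 6.77% of all genes. In these lists 6, 2, 0 and 2 had an unadjusted p under 0.05, against 4806 of all 18370 genes. DESeq2 called 1, 1, 0 and 1 list members, and limma voom 2, 0, 0 and 0, against 2661 and 3486 of all genes. Of 14 exocrine pancreas and gut genes 1 rose (7.14%, against 3.1% of all genes), apoa4a, an apolipoprotein of the gut, with 3.49 ± 0.88 (edgeR, adjusted p = 0.0406). The part of gonad RNA in any difference was not tested.

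Some genes of mitosis were called higher in il2rga than in prkdc mutants. Of 39 tested members of the DNA replication and mitosis list 9 rose (23.1%, against 3.1% of all genes), none fell and 30 were not called. The median was 1.29, and 38 of 39 had a positive fold change. The mitotic kinase gene aurka stood at 9.16, 2.07 and 4.32 CPM against 39.1, 33.3 and 16.8 CPM (log2 fold change 2.52 ± 0.57; edgeR, adjusted p = 0.0309). The gene aurkb, for its relative, changed by 1.72 ± 0.4, racgap1 of cytokinesis by 1.74 ± 0.41 and the checkpoint gene bub1 by 1.5 ± 0.37 (edgeR, adjusted p of 0.0339, 0.0332 and 0.0389). The mean log2 CPM of the list was 5.28, 3.63 and 4.63 in prkdc mutants and 5.84, 5.85 and 5.65 in il2rga mutants, so prkdc mutant 2 was the lowest library. Wild type stood at 5.06, 5.67 and 5.55, a range that holds prkdc mutant 1 and il2rga mutant 3. Prkdc mutants 2 and 3 lay below that range, and il2rga mutants 1 and 2 above it. The replication gene pcna, at 485, 172 and 391 CPM against 367, 361 and 679 CPM, overlapped between the groups and was not called. In 23 of the 39 members every il2rga mutant lay above every prkdc mutant, against 15.4% of all genes, and 23 had an unadjusted p under 0.05. DESeq2 called 19 members higher, limma voom 20 and the edgeR fit with the liver covariate 0. Over all 18370 genes 4806 had an unadjusted p under 0.05, and these fits called 1315, 1715 and 8 higher. With any library of the 2 groups left out, 0 to 14 members rose. Of 18 targets of p53, the DNA damage factor, 1 rose (5.56%, against 3.1% of all genes). It was rps27l, at 20.8, 23.1 and 18 CPM against 49, 39.8 and 51.1 CPM (log2 fold change 1.17 ± 0.21; edgeR, adjusted p = 0.0139). Every il2rga mutant lay above every prkdc mutant in 6 of the 18 targets and below in 0, against 15.4% and 15.3% of all genes. Fold changes were positive for 16 and negative for 2, and 4 had an unadjusted p under 0.05, against 4806 of all 18370 genes. DESeq2 called 1 target higher, limma voom 3 and the edgeR fit with the liver covariate 0. The p53 list level averaged 4.71 log2 CPM in prkdc mutants and 5.12 in il2rga mutants, without overlap.

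Most nuclear genes of oxidative phosphorylation rose in il2rga mutants. Of 31 tested genes of the respiratory chain and ATP synthase 20 rose (64.5%, against 3.1% of all genes), none fell and 11 were not called. The median was 0.79. All 20 are among the 22 nuclear genes of the list, whose fold changes ran from 0.53 to 1.67, and the 9 mitochondrial genes gave no call and ran from 0.02 to 0.63. The ATP synthase gene atp5mc3b stood at 382, 399 and 306 CPM against 986, 749 and 802 CPM, a change of 1.22 ± 0.17 (edgeR, adjusted p = 0.00674). The ATP synthase gene atp5mc1 and the cytochrome oxidase genes cox7c and cox5aa changed by 1.26 ± 0.19, 1.24 ± 0.17 and 1.06 ± 0.15. The mean log2 CPM of the list was 8.53, 8.61 and 8.31 in prkdc mutants and 9.28, 9.13 and 9.25 in il2rga mutants, without overlap.

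Of 60 tested genes with very long transcripts 19 fell (31.7%, against 3.67% of all genes), none rose and 41 were not called, with a median of -0.73. The scaffold gene ahnak stood at 551, 1039.6 and 576 CPM in prkdc mutants and 167, 152 and 155 CPM in il2rga mutants, a change of -2.19 ± 0.3 (edgeR, adjusted p = 0.00674). The Golgi gene golgb1 stood at 150.3, 151 and 168 CPM against 42.7, 65 and 58.9 CPM, the chromatin gene kmt2a changed by -1.45 ± 0.23 and nbeal2, needed for platelet granules in mammals, by -1.95 ± 0.3. The list mean was 5.73, 5.85 and 5.73 in prkdc mutants and 5.27, 5.06 and 4.76 in il2rga mutants. Wild type, at 5.94 to 6.02, lay with the prkdc mutants, and double mutants, at 4.84 to 5.11, lay with the il2rga mutants. A shift between long and short transcripts is also a sign of RNA quality, which the labels do not give, and its part in the results was not tested. Between 5 and 17 long genes fell and 5 to 18 respiratory genes rose with any library of the 2 groups left out, and 0 of either passed with the liver covariate or without the 4 liver-rich libraries. Among 25 immediate early and heat shock genes 2 fell (8%, against 3.67% of all genes), jund and hsf1, with -2.12 ± 0.34 and -1.02 ± 0.2 (edgeR, adjusted p = 0.00971 and 0.0174).

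**Figure D4:**
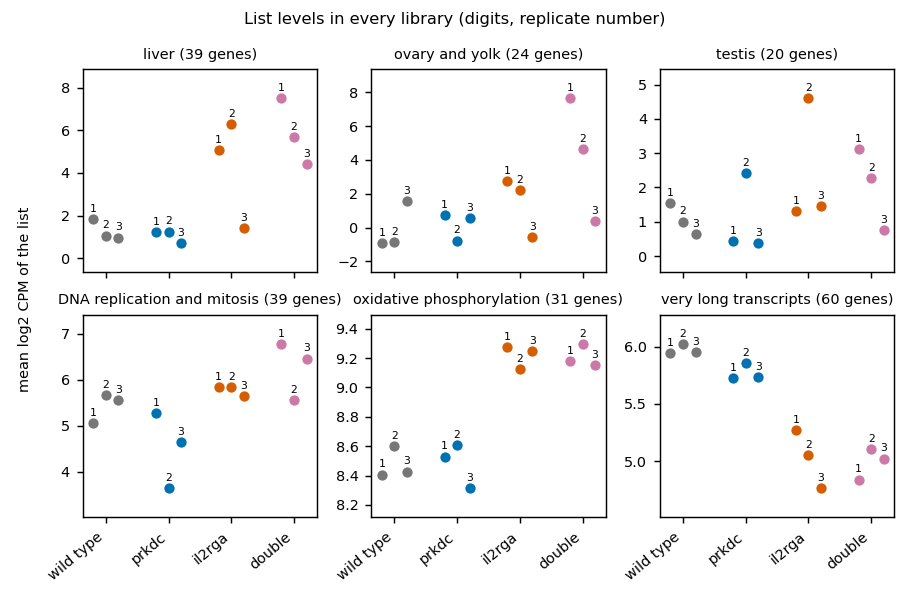
Mean log2 CPM of 6 gene lists in every library, with 1 point per animal and its replicate number. Liver levels are high in il2rga mutants 1 and 2 and in the 3 double mutants, the mitosis level is lowest in prkdc mutant 2, and il2rga and double mutants lie above the other groups for oxidative phosphorylation and below them for very long transcripts.

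**Figure D5:**
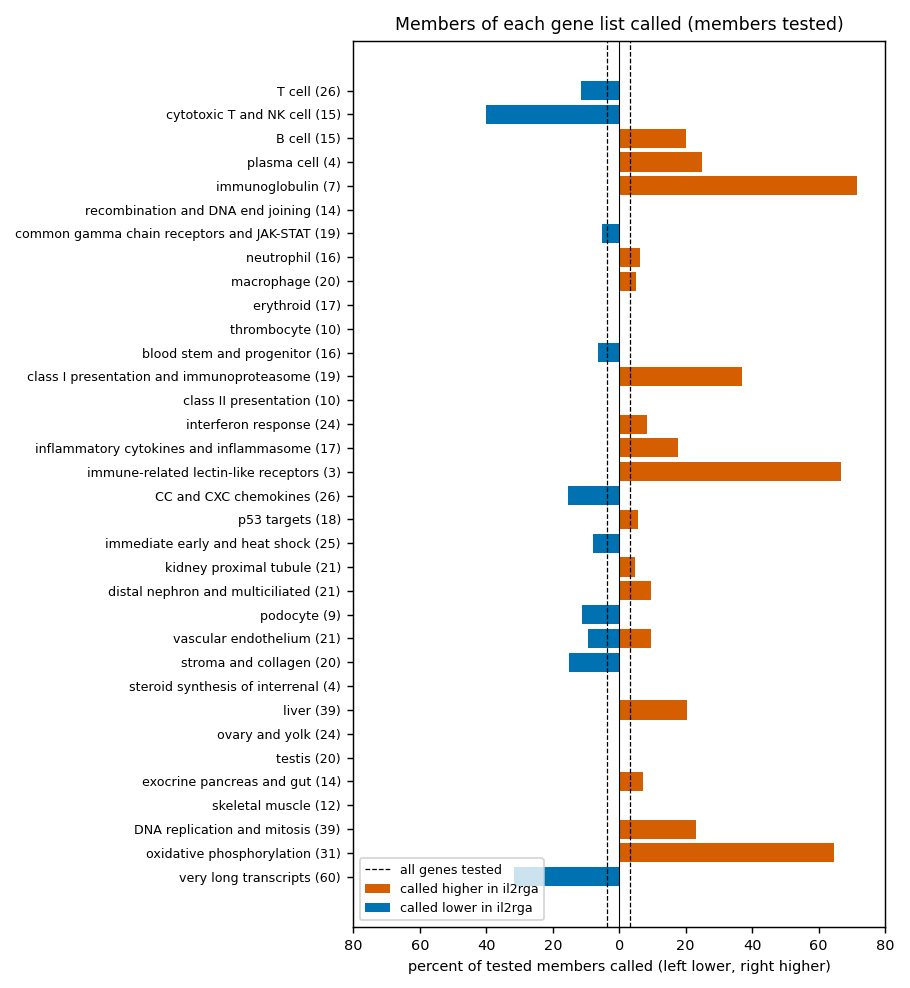
Percent of the tested members of each of 34 lists called lower (blue, left) or higher (orange, right) in il2rga than in prkdc mutants, with the number tested in brackets and dashed lines at the 3.67% and 3.1% of all genes. Immunoglobulin, lectin-like receptor, oxidative phosphorylation and class I lists reach furthest to the right and cytotoxic and very long transcript lists furthest to the left. The lists were chosen with earlier results of these data known.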

How the data were processed

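The authors deposited a table of raw counts per Ensembl gene for 12 libraries, which holds no blank or total rows. Per the labels' protocols, poly(A) RNA was selected for each kidney and sequenced in pairs after a strand-marking library kit. Per the submitters' processing notes, STAR, Picard and featureCounts were run on GRCz10. The sources used here do not give versions, annotation or strand setting, so overlapping and antisense genes are uncertain. A reference table gave symbols for 26269 of 32105 identifiers.

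The filter was filterByExpr, which kept 18370 genes, and the scaling TMM, both over the 12 libraries. A model with 4 group means was fitted to the 12 libraries with edgeR 4.0.16 (R 4.3.3; robust glmQLFit), and glmQLFTest gave 2-sided tests with Benjamini-Hochberg adjustment over all genes at 0.05. The common coefficient of biological variation was 0.418. List levels are log2 CPM with a prior count of 2, and standard errors were taken from the fold change and the F statistic. The code was tested on simulated counts. No library was a copy of another of its group: chi-square per degree of freedom between them was 20.6 to 84.2.

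The groups and the 34 gene lists were chosen with earlier results of these data known. Genes named are il2rga and prkdc, the 12 largest rises and falls among calls that reached 1 CPM on average, did not overlap and had a proper symbol, and of each list up to 4 called members by smallest p or its most abundant member. Others served as examples of list members after their values were seen. Alternatives were DESeq2 1.42.0, limma 3.58.1 voom with quality weights, other scaling and filters, 2 covariates, a replicate block and leaving out libraries.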

Additional observations from a re-analysis of the deposited data

How the results depend on the processing

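The count of 1244 called genes, 570 higher and 674 lower, with 894 at least 2-fold, kept within 1.5 times under DESeq2 size factors, a filter of 1 CPM in 3 libraries, the kidney tubule covariate and the replicate block. It moved to 793 (298 higher) with no filter. The DESeq2 Wald test called 2661 (1315 higher, 1346 lower, 1718 at least 2-fold), limma voom 3486 (1715, 1771 and 2008) and the fit of only the 6 libraries compared 534 (246, 288 and 504). That last fit called 1 liver, 2 mitosis, 2 immunoglobulin, 10 oxidative phosphorylation and 8 very long transcript members. The liver covariate left 11 (8, 3 and 11), and leaving out the 4 libraries highest in the liver list left 16 (12, 4 and 16), the latter with fewer samples. Leaving out each library in turn gave 191 to 1664 called, 38 to 754 higher, 153 to 910 lower and 185 to 1147 at least 2-fold. The lowest of each came without prkdc mutant 3. For the other moves the cause was not tested.

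Replicate numbers were not treated as pairs. Same-numbered il2rga and prkdc mutants had correlations of 0.09, 0.12 and 0.07 after group means were removed, each the best match of its library, which is a hint from the data and not from the design. The replicate block called 928 genes (425 higher, 503 lower and 737 at least 2-fold), and moved the class I members called from 7 to 2. With it 7 liver, 8 mitosis, 18 oxidative phosphorylation and 15 very long transcript members were called.

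The 90 genes followed one by one across settings leave out some called list members given as examples, among them faslg, tbx21, serpina1l, apob and fgb. Of the 78 followed genes that were called, apoa1b reversed, to -0.75 without the 4 liver-rich libraries, and no other did under the settings that gave it a value. The settings reuse libraries from which these genes were called, so a kept sign is no separate test. Of the 12 followed genes not called, 4 changed sign. With the liver covariate and without the 4 libraries, cd74a turned to 0.057 and 0.070, fli1 to 0.44 and 0.21, and tdrd6 to -5.39 and -3.68. With each library left out in turn, tdrd6 ran from -2.99 to 5.63, reversing without prkdc mutant 1 (-0.50), prkdc mutant 3 (-0.51) or il2rga mutant 2, and actc1b from -0.17 to 1.58, reversing without prkdc mutant 3. Low counts limit the fold changes of rare transcripts.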
